A study of Homo sapiens with 5 samples.

Results

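Autophagy is the route by which cells enclose cytoplasm in a double membrane, the autophagosome, and deliver it to lysosomes for breakdown. It is switched on by the ULK kinase complex, which holds the kinase ULK1, the scaffold RB1CC1 (also called FIP200) and the subunits ATG13 and ATG101. A lipid kinase complex with BECN1 then makes the phosphoinositide that WIPI proteins read, a conjugation machinery with ATG5 attaches ATG8-family proteins such as MAP1LC3B and GABARAPL1 to the membrane, and cargo receptors such as SQSTM1 (p62) tie ubiquitinated cargo to them. mTORC1, downstream of PI3K and AKT, restrains the ULK complex by phosphorylation, which acts on the proteins and need not show in RNA.

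The members described here are these 10 genes, found in the deposited table by their gene symbols: RB1CC1, ULK1, ATG13, ATG101, BECN1, ATG5, WIPI1, MAP1LC3B, GABARAPL1 and SQSTM1. All 10 were present among 60623 rows, each once, and all 10 passed the filter on low counts that left 13833 genes for testing. Polyadenylated RNA of HCT116, a long-established colorectal carcinoma cell line of human origin, was sequenced in 2 LT4-treated libraries (replicates 1 and 3) and 3 control libraries (replicates 1, 2 and 3). The sample titles call the agent LT4, the series title names 4-acetylantrocamol LT3, and the labels give neither dose, time nor what the controls received. The design text asks how the agent acts on colorectal cancer cells, PI3K/AKT signalling included. All libraries come from the 1 cell line, and in bulk RNA a share of cells with more transcript and more transcript in every cell cannot be told apart.

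LT4 replicate 3 was the shallowest library, with 2281912 counts, against 9840467 in LT4 replicate 1 and 11653484 to 12296916 in the controls. Mitochondrially encoded genes took 9.92% of its counts, against 5.73% in LT4 replicate 1 and 5.83% to 6.64% in the controls. In the headers of the table the LT4 libraries carry separate group names, and whether they received one and the same treatment is not stated; they are taken here as replicates by their titles. Nothing says that replicates were separate cultures, so p-values measure only library-to-library spread, which could be technical. Of 10 colon epithelial markers 7 passed the count filter, while CDX1, VIL1 and LGALS4 were at or near 0 and KRT20 was low; KRT8, KRT18 and KRT19 make up most of the sum. The 10 colon epithelial markers summed to 12594 to 13512 CPM in LT4 libraries and 13270 to 15486 CPM in controls, while 7 leukocyte markers summed to 0 to 0.297 CPM and 0.162 to 0.432 CPM, with PTPRC, CD3E and NKG7 at 0 counts throughout. The 7 fibroblast markers summed to 10.0 to 14.4 CPM in LT4 libraries and 16.7 to 18.3 CPM in controls, with DCN and PDGFRA at 0 counts, and the 6 hepatocyte markers to 7.62 to 9.57 CPM and 5.62 to 12.9 CPM, with TTR at 0 counts. The part of these differences in the results below was not tested.

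None of the 10 autophagy genes passed an adjusted p of 0.05 between LT4 and control by edgeR's quasi-likelihood test (0 higher, 0 lower), in a comparison where 19 of 13833 genes, or 0.137%, did. Before adjustment, p was under 0.05 for 3 of them, with RB1CC1 and SQSTM1 higher and WIPI1 lower, where 8.58% of all tested genes were higher and 5.28% lower at that level. DESeq2 called 1 of the 10, RB1CC1, and 0.831% of all tested genes, and limma voom called 0 of the 10 and 0.202% of all. RB1CC1 and SQSTM1 were higher in each LT4 library than in any control and WIPI1 was lower, and the groups overlapped for the other 7. Of all tested genes, 17.3% had every control below the LT4 libraries and 16.5% had every control above them, so 2 and 1 of 10 are near the background. The median log2 fold change of the 10 genes was 0.01 and that of all tested genes was -0.0032.

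**Figure D1:**
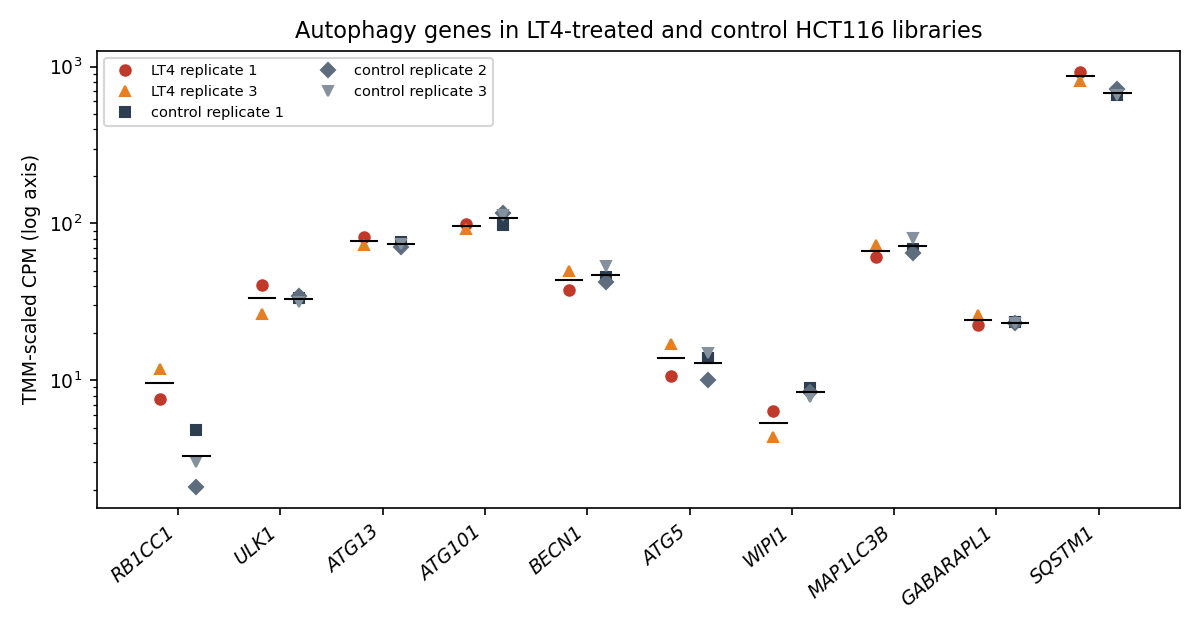
TMM-scaled CPM (counts relative to edgeR's scaled library size, log axis) of each of the 10 genes in every library, with the 2 LT4 libraries left of the 3 controls and a black line at each group mean. RB1CC1 and SQSTM1 lie higher in both LT4 libraries than in any control and WIPI1 lower, while the points of the other genes overlap between groups.

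Among the 10, the largest difference was in RB1CC1, the coiled-coil scaffold that binds ULK1, ATG13 and several cargo receptors and on which the assembly of the ULK complex depends (ENSG00000023287, GRCh38 chromosome 8, 52622456 to 52745843, minus strand, protein-coding). It had 77 and 27 counts in LT4 replicates 1 and 3, against 59, 24 and 35 counts in controls 1, 2 and 3. As CPM (counts scaled to library size by edgeR's TMM factors) these were 7.62 and 11.7 in the LT4 libraries and 4.79, 2.08 and 3.02 in the controls. Both LT4 libraries were above every control, the shallow LT4 replicate 3 highest of all, and the controls differed widely among themselves, with control 2 lowest.

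The log2 fold change of RB1CC1 was 1.46 (SE 0.35, edgeR adjusted p = 0.117). By p it ranked 142 among all tested genes. The mean was 9.68 ± 2.92 CPM with LT4 (SD, n = 2) and 3.30 ± 1.38 CPM in controls (SD, n = 3). The 95% Poisson interval, which covers counting error only, was 7.74 to 17.1 CPM in LT4 replicate 3 and 6.01 to 9.52 CPM in LT4 replicate 1, against 3.65 to 6.18 CPM in control 1. The intervals of LT4 replicate 1 and control 1 overlapped slightly.

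Set against the controls on its own by edgeR, LT4 replicate 1 gave RB1CC1 1.20 on the log2 scale, with SE 0.35 and adjusted p = 0.0396. LT4 replicate 3 on its own gave 1.82, with SE 0.44 and adjusted p = 0.0131. Such a fit takes the spread of a single LT4 library to be that of the controls, and it called far more genes, 3.7% of those tested with LT4 replicate 1 and 4.12% with LT4 replicate 3. The authors' deposited table gives the same direction for RB1CC1. The log2 fold changes there were 1.21 for LT4 replicate 1 and 1.80 for LT4 replicate 3. They describe the same libraries and share the controls, so they are no separate evidence. In the authors' deposited table RB1CC1 was the 1 member under an adjusted p of 0.05 in either comparison, where 6.09% of genes were under it for LT4 replicate 1 and 4.84% for LT4 replicate 3. With 1 control left out at a time, the edgeR value over both LT4 libraries was 1.84 without control 1, 1.20 without control 2 and 1.40 without control 3, with adjusted p of 0.245, 0.376 and 0.326.

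**Figure D2:**
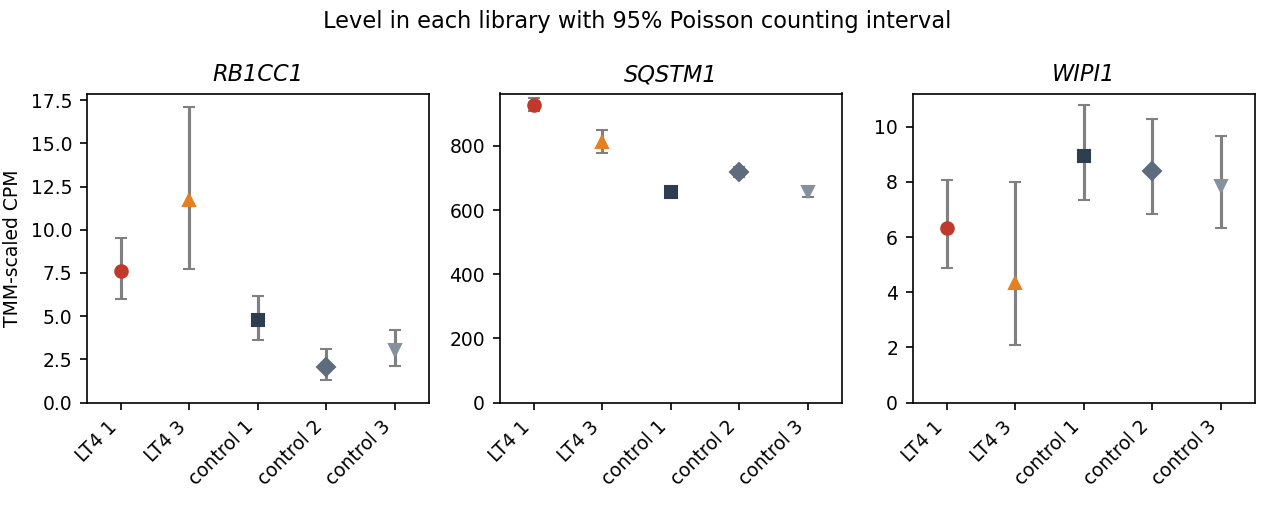
TMM-scaled CPM in each library for the 3 genes whose groups do not overlap, RB1CC1, SQSTM1 and WIPI1, each on its own axis from 0, LT4 libraries first. Bars are 95% Poisson intervals of the count and cover counting error only; they are widest in LT4 replicate 3, where RB1CC1 had 27 counts and WIPI1 had 10.

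RB1CC1 has a long summed exon length and an AT-rich transcript, and fold changes over all genes moved with both properties. The exons of RB1CC1 cover 7615 bases and its longest transcript has 37.6% GC. Tested genes were put into 5 classes of equal size by GC. In the lowest class (28.6% to 41.5% GC) the median log2 fold change was 0.25, and 34.2% of genes had every control below each LT4 library. In the highest class the median was -0.10 and that share was 5.77%. Fitted singly, LT4 replicate 1 had a low-GC median of 0.17 and LT4 replicate 3 one of 0.38. In 5 classes by exon length, the medians ran from -0.15 for the shortest to 0.19 for the longest. RB1CC1 lay in the class below the longest (5574 to 7924 bases), with a median of 0.06. In that class 21.3% of genes had every control below each LT4 library.

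With the GC trend of each library removed, the RB1CC1 value was 1.18 on the log2 scale (SE 0.30, edgeR adjusted p = 0.107). With the length trend removed it was 1.34 (SE 0.33, edgeR adjusted p = 0.13). ATG5 lies in the same GC class as RB1CC1, at 38.8% GC, and in the same length class, and had a log2 fold change of -0.02. Fitted singly, LT4 replicate 1 gave ATG5 -0.29 and LT4 replicate 3 gave it 0.39, so the joint value hides opposite signs. A single gene cannot show what part base composition or length has. The part of base composition in the RB1CC1 value was otherwise not tested.

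**Figure D3:**
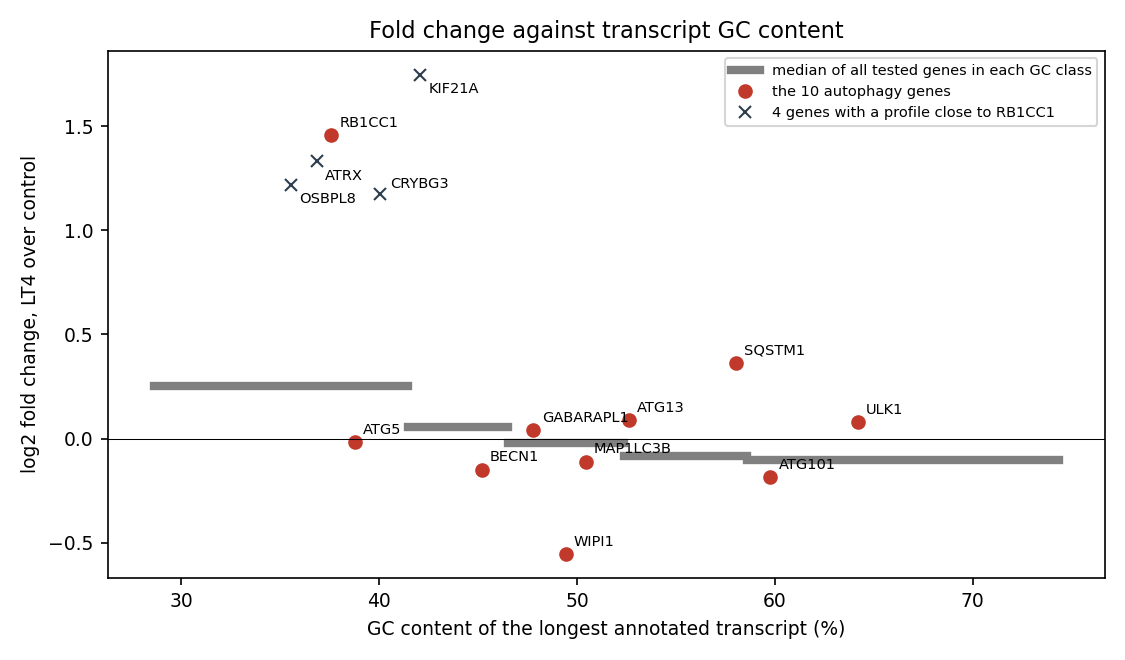
Log2 fold change of LT4 over control (vertical axis) against GC content of the longest annotated transcript in percent (horizontal axis) for the 10 autophagy genes (circles) and the 4 genes named for a profile close to that of RB1CC1 (crosses). Grey bars are the medians of all tested genes in each GC class, which run from 0.25 at low GC to -0.10 at high GC; RB1CC1 lies above the bar of its class and ATG5 below it.

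The genes with the library profile closest to RB1CC1, out of 10372 compared, included ATRX, KIF21A, CRYBG3 and OSBPL8, in that order. Closeness was the root mean square difference of log2 CPM centred on each gene's mean over the 5 libraries, 0.09 for ATRX and 0.22 for OSBPL8. ATRX, a chromatin remodeller, had a log2 fold change of 1.33 (SE 0.36, edgeR adjusted p = 0.151). It had 12.2 and 21.8 CPM in LT4 replicates 1 and 3, against 9.34, 3.90 and 5.44 CPM in controls 1, 2 and 3. As for RB1CC1, control 2 was the lowest and LT4 replicate 3 the highest library. Genes were chosen for this likeness, so their library order and higher LT4 values follow from the choice and are not separate findings. KIF21A, a kinesin motor, had 12.3 and 18.3 CPM in the LT4 libraries, against 6.09, 2.95 and 3.89 CPM in the controls, with a log2 fold change of 1.75 (SE 0.31, edgeR adjusted p = 0.0501). KIF21A passed the threshold in several alternatives, among them RLE factors (0.0494), limma voom (0.0295), the GC trend removed (0.0264) and DESeq2 (0.000449). By edgeR it did not pass with library totals (0.0647), at least 50 counts in 2 libraries (0.079) or equal depth (0.0538). Its adjusted p ran up to 0.302 with a control left out. OSBPL8, a lipid-transfer protein, had 1.22 (SE 0.29, edgeR adjusted p = 0.109) and CRYBG3 had 1.17 (SE 0.38, edgeR adjusted p = 0.2). All 4 had exons of 9198 to 19266 bases in total and 35.5% to 42.1% GC.

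For the kinase and the other subunits of the ULK complex the groups overlapped. ULK1, the protein kinase that starts autophagy (ENSG00000177169, chromosome 12, 131894651 to 131923167), had 40.6 and 26.5 CPM in LT4 replicates 1 and 3, against 33.4, 34.3 and 31.7 CPM in controls 1, 2 and 3. The LT4 libraries lay on opposite sides of the tightly grouped controls. The log2 fold change was 0.08 (SE 0.18, edgeR adjusted p = 0.891), with 0.29 for LT4 replicate 1 alone and -0.32 for LT4 replicate 3 alone.

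ATG13, which bridges ULK1 and RB1CC1 and is an mTORC1 substrate (ENSG00000175224, chromosome 11, 46617527 to 46674818), had 82.5 and 73.1 CPM with LT4, against 76.4, 70.7 and 73.6 CPM in controls. LT4 replicate 1 was highest and LT4 replicate 3 lay among the controls, for a log2 fold change of 0.09 (SE 0.14, edgeR adjusted p = 0.82). ATG101, which stabilises ATG13 (ENSG00000123395, chromosome 12, 52069246 to 52077494), had 98.9 and 92.2 CPM with LT4, against 97.6, 117 and 112 CPM in controls. Control 1 lay between the LT4 libraries, and the log2 fold change was -0.18 (SE 0.15, edgeR adjusted p = 0.601).

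Per unit of length, RB1CC1 was the scarcest transcript of the complex and ATG101 the most abundant. In deposited TPM, RB1CC1 had 2.89 and 3.78 in LT4 replicates 1 and 3, against 1.71, 0.709 and 1.02 in controls 1, 2 and 3. ATG101 had 89.2 and 70.7 TPM with LT4, against 82.6, 94.8 and 90.1 TPM in controls. The ratio of ATG101 to RB1CC1 TPM was 30.9 and 18.7 in the LT4 libraries, against 48.4, 134 and 88.5 in the controls, and the ratio of ULK1 to RB1CC1 was 5.32 and 2.26, against 6.96, 16.4 and 10.5. Both ratios were lower in each LT4 library than in any control; they share the RB1CC1 values and are no separate evidence.

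**Figure D4:**
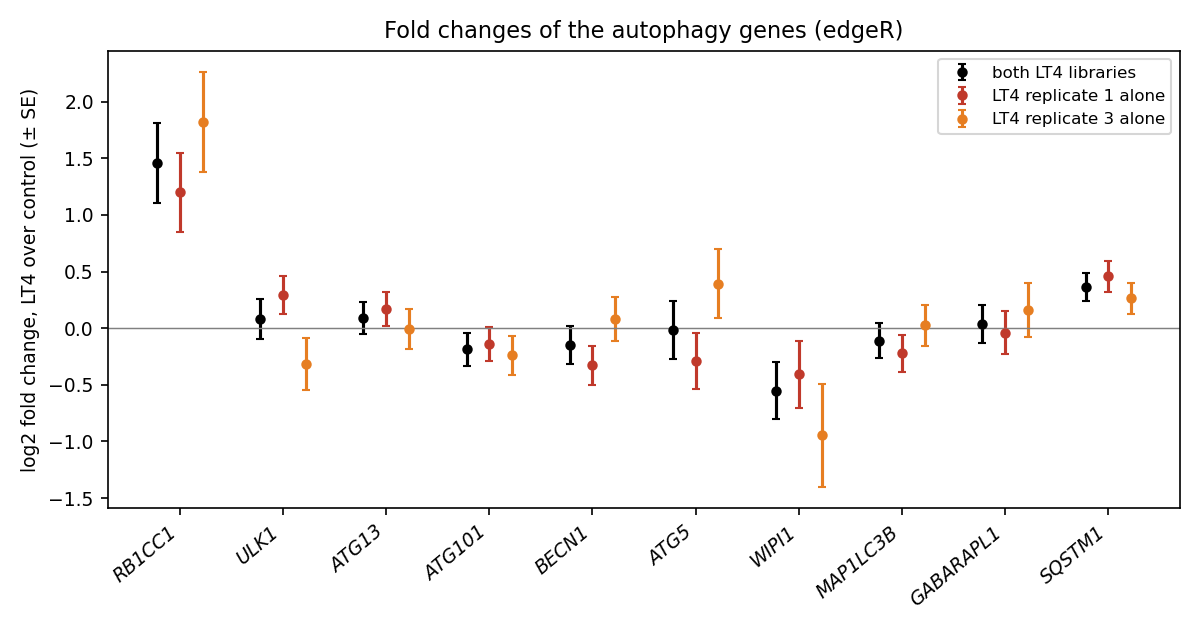
Log2 fold change of LT4 over control (± SE from edgeR) for each of the 10 genes, with both LT4 libraries (black) and with LT4 replicate 1 or replicate 3 alone. RB1CC1, SQSTM1, ATG101 and WIPI1 keep their sign in both single-library fits, while ULK1, ATG13, BECN1, ATG5, MAP1LC3B and GABARAPL1 have opposite signs in LT4 replicates 1 and 3.

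BECN1, the regulatory subunit of the class III PI3K complex that makes phosphatidylinositol 3-phosphate (ENSG00000126581, chromosome 17, 42810134 to 42833350), had 37.4 and 49.6 CPM in LT4 replicates 1 and 3, against 45.6, 42.1 and 53.3 CPM in controls 1, 2 and 3. LT4 replicate 1 was the lowest library and LT4 replicate 3 lay among the controls. The log2 fold change was -0.15 (SE 0.17, edgeR adjusted p = 0.737). WIPI1, a beta-propeller protein that binds that lipid on forming autophagosomes (ENSG00000070540, chromosome 17, 68420948 to 68457513), had 6.33 and 4.35 CPM with LT4, against 8.94, 8.41 and 7.86 CPM in controls. Both LT4 libraries were below every control, on 64 and 10 counts in LT4 replicates 1 and 3, and 110, 97 and 91 counts in the controls. The log2 fold change of WIPI1 was -0.55 (SE 0.25, edgeR adjusted p = 0.353), with -0.41 for LT4 replicate 1 alone and -0.95 for LT4 replicate 3 alone. The counting intervals of LT4 replicate 1, 4.88 to 8.09 CPM, and LT4 replicate 3, 2.09 to 8.0 CPM, both reached into the range of the controls.

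ATG5, which is joined to ATG12 to form the ligase-like arm of ATG8 conjugation (ENSG00000057663, chromosome 6, 106045423 to 106325791), had 10.6 and 17.0 CPM in LT4 replicates 1 and 3, against 13.9, 9.98 and 14.95 CPM in controls 1, 2 and 3. LT4 replicate 3 was the highest library and LT4 replicate 1 was second lowest. The log2 fold change was -0.02 (SE 0.25, edgeR adjusted p = 0.988), and its sign turned to 0.03 when libraries were scaled by their totals only. MAP1LC3B, the LC3 protein whose lipidated form marks autophagosomes (ENSG00000140941, chromosome 16, 87383995 to 87404779), had 61.1 and 72.7 CPM with LT4, against 68.8, 64.8 and 80.8 CPM in controls. Its log2 fold change was -0.11 (SE 0.16, edgeR adjusted p = 0.801), with the LT4 libraries on both sides of control 1. Reads of MAP1LC3B2, a near-identical copy, may be shared with it; that gene had 17 and 4 counts with LT4, against 27, 33 and 29 counts in controls (log2 fold change -0.57, edgeR adjusted p = 0.553). How the counting divided reads between the pair is not given, so both values are uncertain.

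GABARAPL1, of the GABARAP branch of ATG8 proteins (ENSG00000139112, chromosome 12, 10212458 to 10223130), had 22.7 and 26.1 CPM in LT4 replicates 1 and 3, against 23.6, 23.1 and 23.3 CPM in controls 1, 2 and 3, for a log2 fold change of 0.04 (SE 0.17, edgeR adjusted p = 0.945). The controls lay between the LT4 libraries.

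SQSTM1, the cargo receptor that binds ubiquitin and LC3 and is itself degraded by autophagy as a protein (ENSG00000161011, chromosome 5, 179806398 to 179838078), was the most abundant member and rested on 1868 or more counts in each library. It had 929 and 813 CPM in LT4 replicates 1 and 3, against 657, 719 and 657 CPM in controls 1, 2 and 3. Both LT4 libraries were above every control, and their counting intervals (910 to 948 and 776 to 851 CPM) did not reach the highest control interval (704 to 735 CPM in control 2). These intervals cover counting error only, and libraries of the same group were apart too. That of control 1 (643 to 672 CPM) did not reach that of control 2, and the LT4 intervals did not reach each other. The log2 fold change was 0.36 (SE 0.13, edgeR adjusted p = 0.233), smaller than that of RB1CC1 and with a smaller error. LT4 replicate 1 alone gave 0.46 (SE 0.14, adjusted p = 0.0457) and LT4 replicate 3 alone gave 0.26 (SE 0.14, adjusted p = 0.288), while the authors' deposited table lists 0.47 (adjusted p = 0.0583) and 0.24 (adjusted p = 0.445) for those libraries. SQSTM1 has GC-rich transcripts (58.0% GC), in a class whose median log2 fold change was -0.08, and with the GC trend removed its value was 0.47 (SE 0.11, adjusted p = 0.0754). With the length trend removed it was 0.24 (SE 0.14, adjusted p = 0.483).

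The order of the 10 genes by deposited TPM was nearly fixed. For these genes TPM followed the summed exon length of the gene, not the length of a single transcript, so gaps between genes are approximate. SQSTM1 led with 310 ± 64.6 TPM in LT4 libraries (SD, n = 2) and 236 ± 12.0 TPM in controls (SD, n = 3). ATG101 (79.9 and 89.2 TPM with LT4 and in controls), MAP1LC3B (35.2 and 37.2 TPM), ATG13 (29.8 and 27.6 TPM), BECN1 (17.9 and 19.2 TPM), GABARAPL1 (16.0 and 15.1 TPM) and ULK1 (11.9 and 11.4 TPM) followed in that order in all 5 libraries. In the LT4 libraries the gap between MAP1LC3B and ATG13 was within the SD of ATG13, 5.95 TPM. The gap between GABARAPL1 and ULK1 was likewise within the SD of ULK1, 4.82 TPM.

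The 3 scarcest members traded places. ATG5 averaged 6.38 TPM with LT4 and 6.00 TPM in controls, WIPI1 4.25 and 6.48 TPM, and RB1CC1 3.33 ± 0.633 and 1.14 ± 0.510 TPM (SD, n = 2 and n = 3). RB1CC1 was last in every control and in LT4 replicate 1, and stood above WIPI1 in LT4 replicate 3 (3.78 against 3.13 TPM). ATG5 and WIPI1 did not differ beyond their spread in the controls. The share of all tested genes with a lower TPM than RB1CC1 was 26.1% and 33.8% in LT4 replicates 1 and 3, against 18.5%, 8.84% and 11.6% in controls 1, 2 and 3.

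The start regions of the members were read for motifs of factors that act on autophagy genes, over the 250 bases before each RefSeq start (GRCh38.p14), with both strands searched. The table held 12 such windows for 9 of the 10 members, all but RB1CC1. Not all of them are upstream DNA, since several hold bases that GENCODE 29 annotates as exon of some gene. Such bases made up all 250 of the MAP1LC3B window, 176 of a SQSTM1 window and 162 of an ATG5 window. None of the 12 held the E-box CACGTG that TFEB binds (6.34% of all 35116 windows did), the ATF4 element TGATGNAA (3.14%), the FOXO element GTAAACA (2.98%) or the AP-1 site TGANTCA (6.57%). The antioxidant element TGACNNNGC of NRF2 was found in 2 of the 12 windows, those of ATG101 and MAP1LC3B, against 10.9% of all windows. The 2 matches are shown with 10 bases on either side, the match in capitals, in the direction of transcription. That of ATG101 (chr12:52069848-52069876, plus strand) begins 120 bases before the start, and that of MAP1LC3B (chr16:87392280-87392308, plus strand) begins 46 bases before it.
ATG101: tgtgcttctgTGACTACGCggatgttgtg
MAP1LC3B: gcgagtcaccTGACCAGGCtgcgggctga

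The GC box GGGCGG was found in 9 of the 12 windows, from 7 members, against 42.6% of all windows. SQSTM1 and WIPI1 are shown because they are the members, beside RB1CC1, whose LT4 libraries did not overlap the controls; capitals mark the GC box on either strand, and no other motif searched lies in them. The SQSTM1 window is that of the first of its 3 starts in the table (chr5:179806143-179806392, plus strand, 75.2% GC), with 2 matches near its end. The windows of its later starts, not shown, hold 3 matches (chr5:179806759-179807008) and 4 matches (chr5:179820655-179820904). The WIPI1 window (chr17:68457497-68457746, minus strand, 79.6% GC) has 9, in a repeated G-rich stretch.
SQSTM1: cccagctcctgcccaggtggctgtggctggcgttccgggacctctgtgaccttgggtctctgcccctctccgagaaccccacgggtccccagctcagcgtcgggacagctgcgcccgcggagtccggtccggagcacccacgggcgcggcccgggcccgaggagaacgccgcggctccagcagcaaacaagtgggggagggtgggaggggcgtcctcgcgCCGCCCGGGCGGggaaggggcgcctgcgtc
WIPI1: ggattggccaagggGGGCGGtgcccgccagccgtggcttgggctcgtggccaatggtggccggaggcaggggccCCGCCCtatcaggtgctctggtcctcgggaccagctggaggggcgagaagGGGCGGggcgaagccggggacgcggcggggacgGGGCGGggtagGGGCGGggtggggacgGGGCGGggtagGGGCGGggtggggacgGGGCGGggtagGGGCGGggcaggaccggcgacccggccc

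A match is a description of these letters, and no match says nothing of a factor. The genes ATG101 and MAP1LC3B, with the antioxidant element, had log2 fold changes of -0.18 and -0.11. Their windows also held the GC box. SQSTM1 and WIPI1, with GC boxes in view, had 0.36 and -0.55. The remaining members with a GC box were ULK1, GABARAPL1 and ATG5, with 0.08, 0.04 and -0.02.

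Around the members, 104 other genes of the pathway were listed in 10 groups, and 99 were tested; ATG9B, MAP1LC3A, MAP1LC3C, CCPG1 and MITF did not pass the filter on low counts. None passed an adjusted p of 0.05 by edgeR (0 higher, 0 lower), while p before adjustment was under 0.05 for 13, of which 10 were higher and 3 lower, against 8.58% and 5.28% of all tested genes. DESeq2 called 1, ATF4, and limma voom called 0. Of the 99, 54 had positive and 45 negative log2 fold changes, with a median of 0.02. The LT4 libraries exceeded every control for 18 of them and were below every control for 12, against 17.3% and 16.5% of all tested genes, so these counts are near or under the background.

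Among other ULK complex genes and regulators (12 tested, median 0.15), PRKAA2, a catalytic subunit of the energy sensor AMPK, had 4.25 and 4.79 CPM in LT4 replicates 1 and 3, against 3.33, 1.65 and 2.59 CPM in controls 1, 2 and 3 (log2 fold change 0.80, edgeR adjusted p = 0.348). PRKAG1, an AMPK regulatory subunit, had -0.29 (adjusted p = 0.379). In the class III PI3K group (9 tested, median 0.09), the smallest p was that of RUBCN, a negative regulator of autophagosome maturation, with 29.6 and 33.5 CPM, against 23.4, 26.0 and 22.9 CPM (log2 fold change 0.37, edgeR adjusted p = 0.336). PIK3R4, the complex's scaffold kinase, had 0.31 (adjusted p = 0.518). Of the ATG9, ATG2 and lipid-effector genes (7 tested, median 0.02), WIPI2, a paralogue of WIPI1, had 74.0 and 73.1 CPM with LT4, against 80.5, 88.7 and 91.1 CPM in controls (log2 fold change -0.24, edgeR adjusted p = 0.481). ATG2A, a lipid-transfer protein, had 0.16 (adjusted p = 0.779). The LT4 libraries of WIPI2 were below every control, as were those of WIPI1 and of 16.5% of all tested genes. For the other WIPI-family genes the groups overlapped, with 0.02 for WDR45B and -0.06 for WDR45 on the log2 scale.

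The conjugation genes (10 tested, median -0.21) had 3 positive and 7 negative values. ATG12, the ubiquitin-like partner of ATG5, had 30.6 and 47.4 CPM in LT4 replicates 1 and 3, against 22.1, 20.3 and 29.6 CPM in controls 1, 2 and 3. Its log2 fold change was 0.64 (SE 0.22, edgeR adjusted p = 0.224), with 0.99 for LT4 replicate 3 alone (adjusted p = 0.00723) and 0.35 for LT4 replicate 1 alone (adjusted p = 0.324). ATG12 has 37.5% GC, in the same low-GC class as RB1CC1, and with the GC trend removed its value was 0.34 (edgeR adjusted p = 0.386). ATG7, the E1-like enzyme of the pathway, had -0.30 (adjusted p = 0.518).

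Among the other ATG8 genes 3 of 5 were tested, all with negative values (median -0.16), and GABARAPL2 (-0.12 over both, edgeR adjusted p = 0.827) had opposite signs in the LT4 libraries (-0.44 and 0.25 in replicates 1 and 3 alone). The other cargo receptors (23 tested, median -0.03) had 10 positive and 13 negative values. FKBP8, a mitochondrial receptor, had 528 and 513 CPM with LT4, against 610, 680 and 664 CPM in controls (log2 fold change -0.32, edgeR adjusted p = 0.282), and -0.13 with the GC trend removed. TAX1BP1, a ubiquitin-binding receptor, had 0.52 (adjusted p = 0.412). Both had LT4 libraries outside the range of the controls and neither passed. For TAX1BP1 the margin was small, 17.0 CPM in LT4 replicate 1 against 16.8 CPM in control 1. Of the tested genes in this list, 13.0% lay above every control and 17.4% below. Over all tested genes these shares were 17.3% and 16.5%, so the list is near the background.

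Fusion genes (14 tested, median -0.0014) split evenly, 7 positive and 7 negative. STX17, the SNARE of the completed autophagosome, had 0.59 (edgeR adjusted p = 0.284), and the SNARE YKT6 had -0.32 (edgeR adjusted p = 0.337). The SQSTM1 partners and ubiquitin genes (10 tested, median -0.10) included USP8, a deubiquitinase, at 0.62 (edgeR adjusted p = 0.265) and the ubiquitin gene UBB at -0.31 (edgeR adjusted p = 0.28). Removing the length trend gave 0.30 for USP8, -0.18 for UBB, 0.22 for RUBCN and -0.46 for ATG7, and removing the GC trend gave 0.48 for PRKAA2.

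The transcription factors of autophagy genes, a list that also holds their regulators FLCN and FNIP1, had the highest median of the 10 groups, 0.25 over 12 tested, with 11 positive values; for 6 of the 12 genes every control was below each LT4 library, against 17.3% of all tested genes. ATF4, the stress-response factor, had 719 and 701 CPM in LT4 replicates 1 and 3, against 507, 519 and 515 CPM in controls 1, 2 and 3 (log2 fold change 0.47, SE 0.12, edgeR adjusted p = 0.124). FNIP1, a folliculin partner in nutrient sensing, had 1.00 (SE 0.37, adjusted p = 0.255), with 1.60 for LT4 replicate 3 alone and 0.56 for LT4 replicate 1 alone. It has 38.9% GC, in the low-GC class of RB1CC1, and rested on 45 and 21 counts in LT4 replicates 1 and 3. With the GC trend removed its value was 0.75. The 12 autophagy genes reported elsewhere as ATF4 or CHOP targets, which include SQSTM1, MAP1LC3B, ATG5 and BECN1, had a median of -0.12, with 4 positive and 8 negative values. That median was -0.22 for LT4 replicate 1 fitted singly and 0.16 for LT4 replicate 3, so its sign turned between the libraries.

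**Figure D5:**
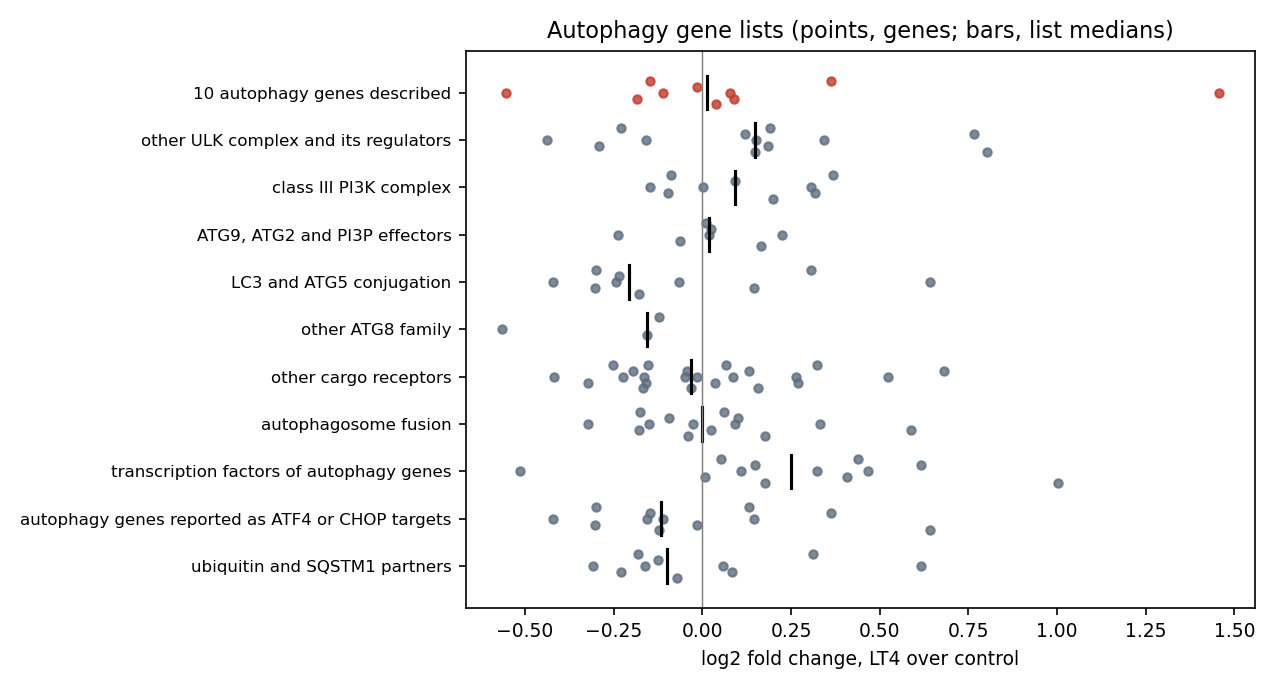
Log2 fold change of LT4 over control (horizontal axis) for each tested gene. The 10 autophagy genes described are in the top row and the 10 groups of autophagy genes around them in the others. A gene in more than 1 list is drawn in each, and the group of ATF4 or CHOP targets also holds SQSTM1, MAP1LC3B, ATG5 and BECN1 of the top row. Black bars are medians and the vertical spread of points has no meaning. No point in any row passed an adjusted p of 0.05; RB1CC1 at 1.46 lies farthest right and the medians run from -0.21 to 0.25.

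Counting could mix some members with genes on the other strand. In GENCODE 29, 7 of the 10 share exonic bases with genes on the opposite strand, SQSTM1 most, with 1582 bases in common with MRNIP; RB1CC1, ATG5 and ULK1 share none. The library kit keeps the strand, but whether the counting used it is not given in the sources used here.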

How the data were processed

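Per the labels' protocols, RNA was taken up in TRIzol and poly(A) libraries were made with a TruSeq stranded kit. The build GRCh38 and the tools Subread 2.0.1, featureCounts, SAMtools 1.9, HISAT2 2.1.0 and fastp 0.20.0 are named, per the submitters' processing notes, with no order or settings. Per the file headers the deposited table holds raw counts and TPM for each library, and the authors' log2 fold changes and p-values for each LT4 library over the controls, from a test that is not named. Of the per-sample columns, 2, headed as a further LT4 library, match no sample in the labels used and were left out.

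LT4 was compared with control on all 5 libraries by edgeR 4.0.16 (R 4.3.3; expression filter, TMM, robust quasi-likelihood F test, Benjamini-Hochberg over 13833 genes, threshold 0.05). SE was computed from the log2 fold change and F (its size over the root of F). Alternatives were RLE factors, library totals, no filter, at least 50 counts in 2 libraries, each library left out, a replicate block, DESeq2 1.42.0, limma 3.58.1 voom, per-library loess trends (span 0.5) on exon length, and thinning to the shallowest library; the GC trend was added after the data were seen. Length and GC content (GENCODE 29, GRCh38) were known for 99.6% of tested genes. Promoter windows came from RefSeq (GRCh38.p14); the GC box was added to the motifs after the others were counted. Figures used matplotlib 3.10.9.

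The 10 members and the gene lists were chosen with earlier results of these data known. Named genes were the members, the 2 genes of smallest p in each other list, since none passed, and the 5 genes of mean log2 CPM at least 2 closest to RB1CC1, of which 1 is not reported here; genes that an alternative called were named with their values known. With 3 and 2 libraries a group, no test of outlying libraries was run.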

Additional observations from a re-analysis of the deposited data

How the results depend on the processing

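The number of genes called over the whole table was 19, and 311 with no count filter, 115 by DESeq2, 35 with the length trend removed, 81 with the GC trend removed, and between 1 and 598 with 1 library left out: 1 without any single control, 598 without LT4 replicate 1 and 526 without LT4 replicate 3. Of the 10 members 0 were called, against 1 (RB1CC1) with no count filter (adjusted p = 0.00166) and by DESeq2 (0.0398), and between 0 and 2 with 1 library left out, where RB1CC1 passed without either LT4 library and SQSTM1 without LT4 replicate 3. Of the other autophagy genes 0 were called, against 1 (ATF4) by DESeq2 and with the GC trend removed, and between 0 and 4 with 1 library left out (ATG12, VMP1, ATF4 and FNIP1 without LT4 replicate 1, ATF4 and USP8 without LT4 replicate 3). For VMP1 the LT4 libraries lay on opposite sides of the controls, with 63.8 and 149.7 CPM in LT4 replicates 1 and 3, against 80.6, 73.3 and 94.97 CPM in controls. The cause of these differences was not tested, beyond that leaving out an LT4 library takes the spread from the controls alone. The shared replicate numbers do not by the labels pair the libraries; deviations of same-numbered libraries had correlations of 0.21 for both numbers, and with the replicate block 427 genes, 2 members (RB1CC1 and SQSTM1) and 2 other autophagy genes (ATF4 and ATG12) were called. RB1CC1 stayed positive in all settings run, from 1.18 to 1.84, with adjusted p from 0.00166 to 0.376, and SQSTM1 (0.24 to 0.47), WIPI1 (-0.95 to -0.41) and ATG101 (-0.26 to -0.07) also kept their sign. Signs turned for ULK1 (-0.044 with the length trend removed), ATG13 (-0.0094 with it removed), ATG5 (0.032 with library totals, 0.015 by DESeq2) and GABARAPL2 (0.074 at equal depth). With 1 library left out, values ran from -0.32 to 0.29 for ULK1, -0.0082 to 0.17 for ATG13, -0.33 to 0.079 for BECN1, -0.29 to 0.39 for ATG5 (0.05 without control 1, 0.11 without control 3), -0.22 to 0.025 for MAP1LC3B, -0.040 to 0.16 for GABARAPL1 and -0.44 to 0.25 for GABARAPL2. ATG2A had -0.28 without LT4 replicate 1. The median of all genes moved by under 0.1 in every setting, from -0.08 to 0.05. In LT4 replicate 3, 3 counts make 1.31 CPM, which limits what can be said of RB1CC1 and WIPI1.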

Other observations

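Some other listed genes are given here, chosen after their values were seen. DDIT3, which encodes the stress factor CHOP, had 13.9 and 19.1 CPM in LT4 replicates 1 and 3, against 8.77, 9.11 and 13.0 CPM in controls 1, 2 and 3 (log2 fold change 0.62, SE 0.24, edgeR adjusted p = 0.28). FOXO3, a factor restrained by AKT, had 27.9 and 27.0 CPM with LT4, against 20.1, 20.5 and 21.7 CPM in controls (log2 fold change 0.41, SE 0.16, edgeR adjusted p = 0.285). TFEB, the factor of lysosome and autophagy genes, had 6.53 and 7.40 CPM with LT4, against 7.64, 11.6 and 9.94 CPM in controls (log2 fold change -0.51, SE 0.26, edgeR adjusted p = 0.399). The groups did not overlap for any of these genes, and none passed the threshold. Of all tested genes, 17.3% had both LT4 libraries above every control and 16.5% had both below. As these genes were picked with their values known, their lack of overlap is no result about them. GABARAP, an ATG8 gene, had 14.1 and 5.66 CPM in LT4 replicates 1 and 3, where replicate 3 held 13 counts, against 11.9, 13.4 and 12.3 CPM in controls.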
